A study of Mus musculus with 48 samples.

Results

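Whole kidney from 6 mice given vancomycin intravenously (iv) at 200 mg/kg per day was compared with kidney from 6 mice given iv saline, all female BALB/c. The 12 mice, of 48 in the study, are those that the labels place in these 2 groups, and are called here by their label numbers, 1 to 6 for saline and 25 to 30 for vancomycin. All received 7 daily injections, the saline mice a like volume without drug, and were killed on day 8. Every mouse is a separate animal on its own single-colour Affymetrix array. The remaining groups of 6 received iv vancomycin at 50 or 400 mg/kg, or saline, 50, 200 or 400 mg/kg by the intraperitoneal (ip) route. The comparison asks what a dose between the lowest and the highest iv dose did to kidney gene expression, and how far the 6 mice resembled each other.

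Vancomycin is a glycopeptide antibiotic that is cleared by the kidney, and its main organ toxicity is injury of the proximal tubule. Injured tubule cells are known to lose transporters and to switch on genes such as Havcr1, which encodes kidney injury molecule 1, and Clu, which encodes the secreted chaperone clusterin. Macrophage genes, collagens and cell cycle genes are known to follow during inflammation and repair. Immediate early genes such as Fos and Egr1 are transcription factor genes that switch on within minutes of a stimulus and decay quickly.

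Levels are log2 intensity, and a change is a difference of group means on that scale, so that 1 unit is a 2-fold change. Array medians were 3.34 to 3.47 in the saline mice and 3.36 to 3.55 at 200 mg/kg, and the number of arrays limits the precision. Saline mouse 1 and vancomycin mouse 27 had the highest medians of their groups (3.47 and 3.55), and mouse 1 the lowest 90th percentile (8.29, against 8.68 to 8.75 in the other saline mice), so main counts are also given without them. Gene names rest on a reconstruction, because values in the table do not follow the identifiers beside them. Same-gene pairs of probe sets correlated at 0.038 across 30406 pairs as listed, but at 0.494 across 2927 pairs in the 3 stretches named here. In those same stretches as listed, the value was 0.142 over 3132 pairs. Because the pairing was itself found from the values, these correlations are no independent check of the names. Markers of the tissue were bright in saline kidney, with means of 13.27 for Umod of the loop, 13.23 for Slc34a1 and 12.77 for Lrp2 of the proximal tubule, and 11.10 for Aqp2 of the collecting duct.

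At 200 mg/kg, 313 of 5748 tested genes rose and 66 fell against saline. These are 5.45% and 1.15% of the genes tested, or 6.59% together (limma across all 48 arrays, adjusted p under 0.05 over all probe sets). More than 2-fold changes numbered 105 rises and 23 falls, 2.23% of the genes. Over all 24930 probe sets, which need no gene name, 1051 rose (4.22%) and 291 fell (1.17%), 5.38% in all. The split leaned less to rises after quantile normalization, with 270 genes up and 120 down. The main fit takes 1 spread per gene from all 8 groups. The median SD among mice over all tested genes was 0.17 in ip saline and 0.18 at ip 200 mg/kg. In iv saline it was 0.27 (0.18 without mouse 1), and at iv 200 mg/kg 0.26. For the 313 rising genes it was 0.51 at iv 200 mg/kg and 0.19 in these ip groups. Adjusted p in the main fit thus rests partly on tighter groups. When only these 12 arrays were fitted, so that the spread came from these mice alone, 56 genes were called, 28 in each direction, and 53 of them were among the 379. Without saline mouse 1 and vancomycin mouse 27 the count was 171 genes, 125 up and 46 down. Without these mice all 379 genes kept their direction. The fit of the 12 arrays could not change a direction, because it compares the same group means and only the spread differs. Single mice also moved the counts: 240 genes were called without mouse 25 (192 up) or without mouse 29 (199 up and 41 down), rises numbered 206 without saline mouse 1, and falls 43 without saline mouse 3 and 100 without mouse 28.

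The treated mice did not respond alike. More than 2-fold from the saline mean were 430 genes in mouse 25, 133 in mouse 26, 528 in mouse 27, 50 in mouse 28, 317 in mouse 29 and 226 in mouse 30. Each saline mouse was set against the mean of the other saline mice, and the counts were 719 in mouse 1 and between 16 and 77 in the other 5. Mouse 1 stood apart from its group, and 662 of its 719 genes were lower. Mouse 28 lay within the range of saline mice 2 to 6 by this count.

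**Figure D1:**
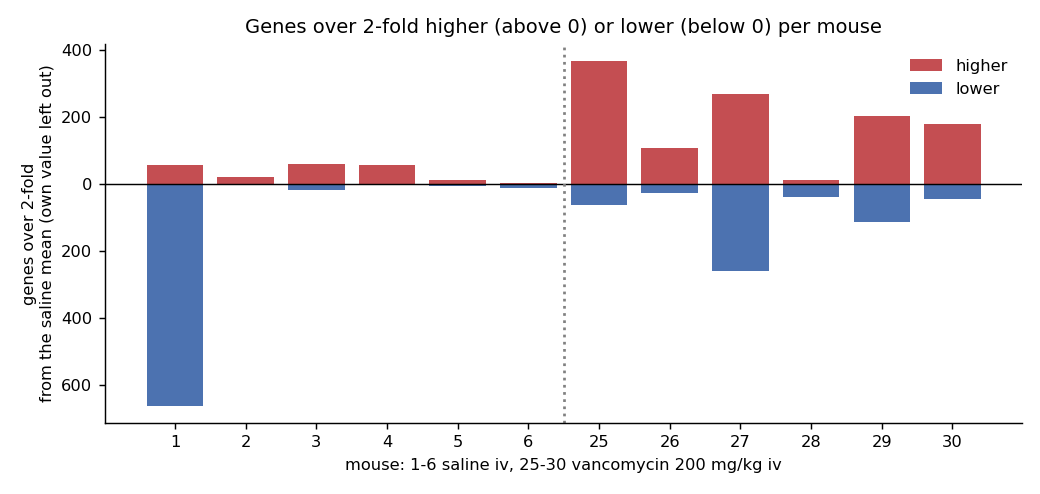
Number of tested genes over 2-fold higher (bars above 0) or lower (bars below 0) than the saline mean in each of the 12 mice, with each saline mouse compared with the mean of the other 5. Among treated mice the count ran from 50 in mouse 28 to 528 in mouse 27, and saline mouse 1 had 719.

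Genes of tubular injury and repair had the largest median change of the gene lists tested. Of 24 tested members 15 rose and 0 fell (62.5% up, against 5.45% of all genes). The median change was 1.54 against 0.06 over all genes. All gene lists were written with earlier results of these data known, so the share or rank of a list is a description and not a test. Clusterin, a secreted chaperone, rose by 3.01 ± 0.33 (standard error), or 8.04-fold. Its levels were 9.05, 10.05, 10.10, 10.49, 10.28 and 10.39 in saline mice 1 to 6, and 14.37, 12.18, 13.88, 10.47, 13.76 and 13.75 in vancomycin mice 25 to 30 (adjusted p = 3.2e-08). Mice 25, 27, 29 and 30 were far above every saline mouse, mouse 26 was above by less, and mouse 28 lay at the top of the saline range without passing it.

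Havcr1, the gene of kidney injury molecule 1, rose by 2.48 ± 0.42 (adjusted p = 9.8e-05). Its levels were 10.05, 9.29, 8.71, 10.13, 10.21 and 9.43 in the saline mice and 12.63, 10.72, 13.74, 9.95, 13.13 and 12.53 in the treated mice. Again mouse 28 was inside the saline range and mouse 26 just above it. With only the 12 arrays fitted, the adjusted p for Havcr1 was 0.057, whereas Clu kept its call at 0.027.

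The largest change of all was that of Serpina10, a gene of a serine protease inhibitor that restrains coagulation, which rose by 5.46 ± 0.61 (adjusted p = 3.4e-08). Levels were 2.62, 3.58, 2.57, 3.13, 4.16 and 3.39 in the saline mice and 10.45, 7.46, 10.46, 3.75, 10.32 and 9.77 in the treated mice. The saline mean, 3.24, is under the table median of 3.47, close to background, which makes the rise approximate in size. Mouse 28 was the only treated mouse inside the saline range. Lrg1, which encodes a secreted leucine-rich glycoprotein of the acute phase, rose by 3.23 ± 0.49 (adjusted p = 1.6e-05). Saline mice had 3.27, 3.93 and 4.36 as lowest, median and highest level of Lrg1, and treated mice 3.95, 7.27 and 9.27, the lowest being mouse 28.

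Others of the group were intermediate filament, secreted and membrane genes. Krt20, a keratin, rose by 2.48 ± 0.49 from a saline mean at background (2.96). Fga, the fibrinogen alpha chain, rose by 2.81, Aoc1, the histamine-degrading diamine oxidase, by 2.49, and Cd44, a hyaluronan receptor, by 1.37. These 4 calls were lost with only the 12 arrays fitted, where the adjusted p was 0.091 for Krt20, 0.085 for Fga, 0.076 for Aoc1 and 0.13 for Cd44. Lgals3 (galectin 3) rose by 1.48 and Tmsb10 (thymosin beta 10) by 1.77. Cp (ceruloplasmin), which rose by 1.65, was the only member above all 6 saline mice in all 6 treated mice, as were 71 genes in all (1.24%). The 9 other members were not called: Sox9, a factor of tubule repair, was at -0.02, Hbegf at -0.55 and Krt19 at 1.17 (adjusted p = 0.12).

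Across the group, 4 of the 15 rises were called with only the 12 arrays fitted, and 13 without mice 1 and 27. Outside the list, Timd2, a cell surface receptor of the TIM family to which Havcr1 belongs, rose by 2.72 ± 0.43 (adjusted p = 3e-05; 0.054 with only the 12 arrays). D17H6S56E-5 rose by 2.95 ± 0.38 (adjusted p = 6.3e-07), and in this gene all 6 treated mice, at 9.19, 6.67, 8.16, 5.85, 8.06 and 8.75, were above all saline mice, the highest of which was at 5.38.

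**Figure D2:**
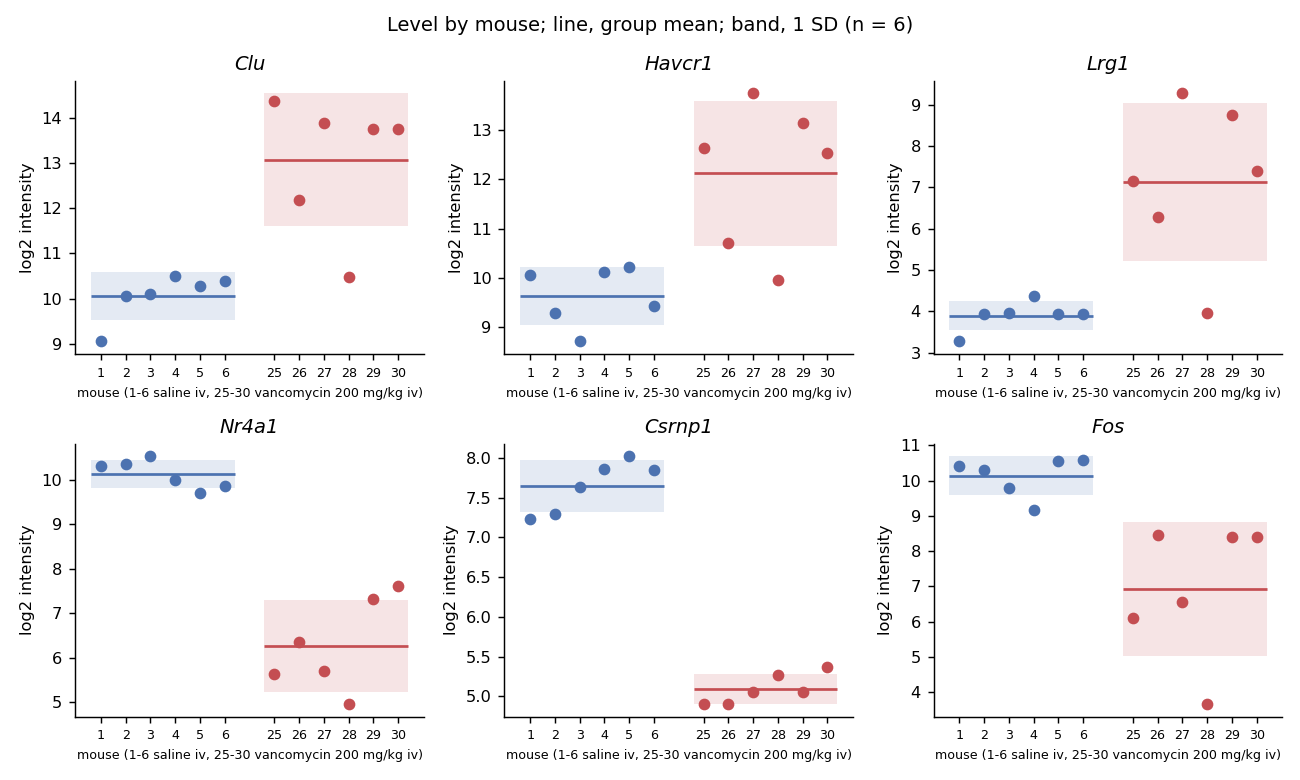
Level (log2 intensity) of 6 genes in each mouse; points are mice, lines are group means and bands are 1 SD (n = 6). Clu, Havcr1 and Lrg1 are high in mice 25, 27, 29 and 30 and at or near the saline range in mouse 28, while Nr4a1, Csrnp1 and Fos are below every saline mouse in all 6 treated mice.

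Markers of macrophages and other myeloid cells rose together. Of 22 tested, 14 rose and 0 fell (63.6% up, against 5.45% of all genes), with a median change of 1.37. The summed intensity of the 22 was 787 to 935 in saline mice and 1008 to 5182 at 200 mg/kg. Because whole kidney was measured, more cells of a type and more RNA per cell cannot be told apart. Cd14, a receptor for bacterial lipopolysaccharide, rose by 2.55 ± 0.41, Ms4a6b by 2.37, and Ly86, which binds a Toll-like receptor relative, by 2.33 ± 0.35 (adjusted p = 1.4e-05). Ly86 levels were 4.11, 4.58, 4.24, 4.37, 4.82 and 4.30 in the saline mice and 8.49, 5.06, 7.38, 5.37, 6.35 and 7.74 in the treated mice, so that all 6 treated mice lay above all saline mice, mice 26 and 28 only by a little.

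Lyz2 (lysozyme) rose by 1.80, Ptprc (the leukocyte antigen CD45) by 1.54, Aif1 by 1.49 and the chemokine receptor gene Ccr2 by 1.62. In contrast Csf1r, the receptor for the macrophage growth factor, was at -0.16 (adjusted p = 0.66), Itgam at 0.05 and Laptm5 at 0.04. With only the 12 arrays fitted 3 of the 14 were called, and 13 were called without mice 1 and 27. Other blood cells were hardly covered: 1 neutrophil gene (Csf3r, -0.01), 1 of T and NK cells (Cd8a, 0.08) and 3 of B and plasma cells could be tested. None passed in the limma fit, and 1, a B cell gene, had an unadjusted p under 0.05, as had 21.5% of all genes. Csf3r was at background in every mouse of both groups.

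Inflammatory signals moved in both directions, with 9 of 19 up (47.4%), 2 down (10.5%) and a median of 0.75. Of all genes 5.45% rose and 1.15% fell. Socs3, the feedback inhibitor of cytokine receptors that signal through STAT factors, rose by 2.25 ± 0.33 (adjusted p = 9.2e-06; 0.052 with only the 12 arrays). Its levels were 2.80, 2.06, 2.56, 2.06, 2.56 and 2.52 in the saline mice, at background, and 6.06, 3.43, 5.35, 2.58, 5.05 and 5.56 in the treated mice. Only mouse 28 was within the saline range. Il1f6, the gene of interleukin 36 alpha, rose by 2.34, the chemokine genes Ccl5 by 2.01 and Ccl9 by 1.69, and Icam1, a leukocyte adhesion receptor, by 1.23. Of the NF-kB family, Nfkb2 rose by 0.92 and its partner Bcl3 by 1.10.

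The falling members were Ptgs2, the inducible cyclooxygenase, which fell by 1.19, and Cebpb, a transcription factor gene, which fell by 1.18. Ptgs2 levels were 4.23, 4.64 and 5.22 (lowest, median, highest) in the saline mice and 3.20, 3.46 and 3.63 in the treated mice, so the groups did not overlap, with the treated levels near the table median. Fitted on the 12 arrays only, 1 rise (Nfkb2) and 1 fall (Ptgs2) of the list kept their call.

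Of 11 complement genes 4 rose and 0 fell (36.4% up, against 5.45% of all genes), with a median of 0.47. Cfi, which encodes the protease factor I that degrades active complement, rose by 2.23 ± 0.29 (adjusted p = 1.1e-06). Cfi levels were 6.61, 6.90, 6.80, 6.87, 6.82 and 6.68 in the saline mice and 10.53, 7.85, 9.57, 7.17, 9.19 and 9.74 in the treated mice, without overlap. C1qa, C1qb and C1ra, parts of the C1 complex, rose by 1.50, 1.00 and 0.96. Without mouse 25, 2 of the 4 were called, as C1ra (adjusted p = 0.058) and C1qb were lost. C1qb was also lost without mouse 29 or mouse 30. C1qa and C1qb are also among the myeloid markers.

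The interferon response had 8 rises and 0 falls among 23 genes (34.8% up, against 5.45% of all genes), with a median of 0.67. Psmb8, an immunoproteasome subunit, rose by 1.36 ± 0.26, Gbp2, a guanylate-binding protein, by 1.30, and Irf9, a transducer of interferon signals, by 0.90. The count depended on single mice. It was 2 without mouse 25, 3 without mouse 29 or saline mouse 1, 4 without mouse 27, 5 without mouse 30 and 1 without mice 1 and 27 together. Gbp2 lost its call without saline mouse 1 (adjusted p = 0.062) or mouse 25 (0.055). Rsad2, at -0.06, and Oas2, at 0.09, were not called.

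Antigen presentation had 8 rises and 0 falls among 10 genes (80.0% up, against 5.45% of all genes), with a median of 0.92. They included the class II genes H2-DMa (1.45), H2-Ab1 (1.22) and H2-Eb1 (1.03), and Cd74, the class II chaperone (0.98). Without mouse 25 the count was 4, with H2-Eb1 and Cd74 lost. Without mouse 27 or mouse 30 it was 5, and Cd74 was lost there too. Psmb8 counts under both this list and the interferon list, and it alone was called here with only the 12 arrays fitted (adjusted p = 0.045). The class I genes H2-D1 and H2-K1, at 0.45 and 0.49, were not called.

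Extracellular matrix genes rose, 13 of 24 (54.2%, against 5.45% of all genes), with 0 falls and a median of 0.79. Both chains of collagen I rose, Col1a1 by 3.18 ± 0.43 (adjusted p = 1.9e-06) and Col1a2 by 2.39 ± 0.35 (adjusted p = 7.9e-06). Col1a1 levels were 4.30, 4.31, 3.56, 4.52, 4.78 and 4.29 in the saline mice and 9.15, 6.16, 7.82, 4.83, 8.44 and 8.43 in the treated mice. The groups did not overlap, although mouse 28 was just above the highest saline mouse. Sparc, a collagen-binding matrix protein, rose by 1.27 ± 0.19 without overlap, from 10.02, 10.18 and 10.42 (lowest, median, highest) to 10.50, 11.76 and 12.00.

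Fn1 (fibronectin) rose by 1.70, Col5a1 by 1.37, Col8a1 by 1.40 and Col4a1, of basement membrane, by 1.06. Postn (periostin), at 0.42, and the fibroblast receptor genes Pdgfra, at 0.28, and Pdgfrb, at 0.59, were not called. Without mouse 25 the count of rises was 8, and with only the 12 arrays fitted it was 4: Col1a1, Col1a2, Sparc and Col8a1.

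Cell cycle genes gave 7 rises and 0 falls among 24 (29.2% up, against 5.45% of all genes), with a median of 0.52. Rrm2, the small subunit of ribonucleotide reductase, rose by 2.25 ± 0.39, Ccna2 (cyclin A2) by 2.13 ± 0.36, Mki67, the Ki-67 antigen gene, by 2.01, and Birc5 (survivin) by 1.82. Ccna2 levels were 3.15, 3.28, 3.04, 2.96, 3.03 and 3.01 in the saline mice, at background, and 7.21, 3.79, 5.34, 3.47, 4.85 and 6.57 in the treated mice. All treated mice were above all saline mice, mouse 25 the most and mouse 28 the least. The count was 4 without saline mouse 1, saline mouse 5, mouse 25 or mouse 30, and 0 in the limma fit of only the 12 arrays. In that fit 13 of the 24 had an unadjusted p under 0.05, as did 1026 of all 5748 genes.

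The genes that fell were led by immediate early genes. Of 13 tested 7 fell and 0 rose (53.8% down, against 1.15% of all genes), with a median of -1.38. Nr4a1, an orphan nuclear receptor gene, fell most, by 3.86 ± 0.41 (adjusted p = 9.1e-09). Its levels were 10.31, 10.35, 10.53, 10.00, 9.71 and 9.85 in the saline mice and 5.63, 6.36, 5.69, 4.95, 7.31 and 7.61 in the treated mice. No treated mouse came near the lowest saline mouse, and mouse 28, whose median change over the tubular injury list was 0.06, had the lowest value.

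Csrnp1, a nuclear protein gene of the same class, fell by 2.56 ± 0.26 (adjusted p = 3.3e-09). Its levels were 7.23, 7.30, 7.63, 7.86, 8.02 and 7.85 in the saline mice and 4.91, 4.90, 5.05, 5.26, 5.06 and 5.37 in the treated mice, with a narrow spread among the treated mice (SD 0.19). Fos, a subunit of the AP-1 factor, fell by 3.21 ± 0.72 (adjusted p = 0.0037; 0.051 with only the 12 arrays and 0.062 with only the 24 iv arrays). Its levels were 10.42, 10.30, 9.80, 9.16, 10.55 and 10.59 in the saline mice and 6.10, 8.44, 6.55, 3.66, 8.40 and 8.40 in the treated mice. The groups did not overlap, and the treated mice spread widely, down to mouse 28.

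The zinc finger factor gene Egr1 fell by 2.55 ± 0.57, Rasd1, of a Ras-like G protein, by 2.32 ± 0.30, and Jun, the partner of Fos, by 1.56 ± 0.30. Gem, of a small GTPase, fell by 1.38 (adjusted p = 0.042) and was not called without any one of 9 of the 12 mice, saline mice 2, 3, 4 and 6 or vancomycin mice 25, 26, 28, 29 and 30. Nr4a1, Csrnp1, Egr1, Rasd1 and Jun kept their calls with only the 12 arrays fitted. All 7 were called without mice 1 and 27. For the 6 genes from Nr4a1 to Jun all treated mice were below all saline mice, as they were for 43 of all 5748 genes (0.748%). Maff, at -0.13, Klf4, at -0.25, Ier5, at 0.35, and Myc, at 0.86 (adjusted p = 0.072), were not called.

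The promoters of the 2 largest falls and of the largest rise that have a single listed start site are shown, to set genes that moved in opposite directions beside each other. Each is the 250 bases before the start site from RefSeq (build GRCm38.p6), 5′ to 3′ on the gene's strand, for Nr4a1 (chr15:101266596-101266845, plus strand), Fos (chr12:85473640-85473889, plus strand) and Lrg1 (chr17:56121947-56122196, minus strand). Capitals mark matches to any of 12 motifs, searched on both strands.
Nr4a1: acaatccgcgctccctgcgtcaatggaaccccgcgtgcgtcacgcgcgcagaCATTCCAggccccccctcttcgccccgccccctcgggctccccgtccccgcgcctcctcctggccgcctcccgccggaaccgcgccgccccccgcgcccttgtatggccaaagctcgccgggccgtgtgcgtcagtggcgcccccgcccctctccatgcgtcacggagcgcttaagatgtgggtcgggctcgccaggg
Fos: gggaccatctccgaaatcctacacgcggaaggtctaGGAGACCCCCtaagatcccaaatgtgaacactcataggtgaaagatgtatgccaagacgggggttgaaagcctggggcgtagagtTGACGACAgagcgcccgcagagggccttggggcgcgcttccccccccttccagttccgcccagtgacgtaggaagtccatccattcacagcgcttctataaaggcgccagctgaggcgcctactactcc
Lrg1: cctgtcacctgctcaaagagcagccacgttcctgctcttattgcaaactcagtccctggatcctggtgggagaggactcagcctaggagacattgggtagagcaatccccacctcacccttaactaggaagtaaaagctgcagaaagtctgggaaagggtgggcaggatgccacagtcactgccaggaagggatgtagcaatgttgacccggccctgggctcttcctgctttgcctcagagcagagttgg

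The motifs were CRE (TGACGTCA), a CRE variant (TGACGNNA), AP-1 (TGANTCA), a STAT palindrome (TTCCNGGAA) within a looser STAT-type motif (TTCNNNGAA), the E-box (CACGTG), a D-box (TTATGNAA), C/EBP (TTGCNNCAA) and TEAD (CATTCCA), and the CArG box, NF-kB and HNF1 motifs. The CRE variant includes the CRE itself. The Nr4a1 window held the TEAD letters 198 bases before the start, a motif in 3.69% of all 32851 windows of this length. The Fos window held the CRE variant TGACGACA at 129 bases, a motif in 5.66% of windows, and on the other strand an NF-kB match at 214 bases, in 7.25%. Lrg1 had no match. The search covered 29 genes, of which 19 had a window (28 windows in all), and no motif was matched in more than 3 of those windows. The motifs and the promoters shown were chosen after the changes and an earlier set of matches had been seen. A match is a stretch of letters and was not tested for binding.

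Other large falls were those of Slc25a25, a mitochondrial ATP carrier gene, by 3.19 ± 0.45, Plk3, a polo-like kinase gene, by 2.26, Id1, an inhibitor of helix-loop-helix factors, by 2.06, and Noct, of the clock-driven protein nocturnin, by 1.56. Slc25a25 levels were 7.55, 8.16 and 9.33 (lowest, median, highest) in the saline mice and 4.39, 4.83 and 6.45 in the treated mice. The 4 genes kept their calls with only the 12 arrays fitted, with adjusted p of 0.001, 0.0066, 0.001 and 0.027. Plk3 alone of 12 p53 targets was called (8.33% down, against 1.15% of all genes). Cdkn1a, the cell cycle inhibitor p21, was at -0.37 (adjusted p = 0.59), with mouse 27 at 8.69 above the saline range and 4 mice below it, and its other probe set was at 0.16.

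Of 19 circadian clock genes 2 fell and 0 rose (10.5% down, against 1.15% of all genes). Ciart, a repressor in the clock, fell by 1.48 ± 0.37 (adjusted p = 0.0099), with saline levels of 7.07, 7.27 and 8.03 (lowest, median, highest) and treated levels of 5.04, 5.75 and 7.02, and no overlap. Without mice 1 and 27 its adjusted p was 0.061. Bhlhe40 fell by 0.92 and lost its call without saline mouse 4 or 5, or vancomycin mouse 27, 29 or 30 (adjusted p up to 0.078). Dbp was at -0.28 and Nr1d1 at -1.08, with mouse 27 the lowest for both, and neither passed. For Nr1d1 all 6 treated mice were below all saline mice. Vegfa, the vascular growth factor gene, fell by 0.68 (adjusted p = 0.0091; 0.066 with only the 12 arrays and 0.12 without mice 1 and 27).

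Genes of tubule function were mostly lower but seldom called. Of 36 proximal tubule transporter genes 34 were below saline and 3 fell, while 1 rose, with a median of -0.36. The falls are 8.33% and the rise 2.78% of the list, against 1.15% and 5.45% of all genes. Slc22a12, the urate exchanger gene, fell by 0.75 ± 0.18 (adjusted p = 0.0071), with saline levels of 11.40, 11.81, 11.69, 11.76, 11.89 and 11.50 and treated levels of 10.78, 10.99, 11.31, 10.68, 10.93 and 10.83. All 6 treated mice, mouse 28 included, were below all saline mice. Slc7a8, an amino acid transporter gene, fell by 0.75 but was lost without mouse 25, 27 or 29 (adjusted p up to 0.089). Slc13a3, a dicarboxylate transporter gene, fell by 0.78 and was lost without any one of 9 mice (saline 2 to 6, vancomycin 25, 27, 29 or 30). Slco3a1, an organic anion transporter gene, rose by 0.65, and was lost without mouse 29 (0.054). Of these 4 calls that of Slc22a12 was kept with only the 12 arrays fitted.

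The organic anion transporters Slc22a6 and Slc22a8, at -0.51 and -0.80, the phosphate transporter Slc34a1, at -0.50, and the endocytic receptor Lrp2 (megalin), at -0.34, were not called (adjusted p 0.39, 0.32, 0.41 and 0.49). Of 36 metabolic genes of the proximal tubule 32 were below saline and 4 fell (11.1%, against 1.15% of all genes), with a median of -0.44. Dpys, a pyrimidine breakdown enzyme, fell by 1.17 ± 0.27. Prodh, of proline breakdown, fell by 0.68 and was lost without mouse 25 or 29. Agmat, of agmatine breakdown, fell by 0.69 and was lost without any one of 8 mice (saline 1, 3, 4 and 5, vancomycin 25, 27, 29 and 30), and Ddc, the amino acid decarboxylase gene, fell by 0.60 and was lost without any one of 10, all but saline mouse 1 and vancomycin mouse 26. The count was 1 without mouse 25 or 29 and 2 without saline mouse 3, 4 or 5 or mouse 27 or 30, and none of the 4 kept its call with only the 12 arrays fitted (adjusted p 0.072 to 0.11).

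Hpd, an enzyme of tyrosine breakdown, shows how the mice differed. Its saline levels were 12.98, 13.15, 13.49, 13.59, 13.11 and 13.29, and its treated levels 10.99, 13.64, 11.75, 13.33, 11.36 and 11.59. Mice 25, 27, 29 and 30 were below all saline mice and mice 26 and 28 were not, and the mean change of -1.15 ± 0.59 did not pass (adjusted p = 0.29). In the loop and distal tubule 14 of 18 genes were below saline (median -0.28, against 0.06 over all genes). Of these 18 genes 0 were called by limma and 3 had an unadjusted p under 0.05, as had 21.5% of all genes. Egf, an abundant growth factor gene of that segment, was at -0.73, with 5 mice below all saline mice, and Umod (uromodulin) at 0.03. In the collecting duct 13 of 14 were below saline and 1 fell (7.14%, against 1.15% of all genes). It was Scnn1a, a subunit of the sodium channel, at -0.45 (adjusted p = 0.042). That call was lost without any one of 9 mice (saline 1, 3, 4 or 6, vancomycin 25, 26, 27, 29 or 30). Aqp4, a water channel gene, was at -0.86 (adjusted p = 0.066), and its other probe set was called at -1.37 (0.049).

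No gene was called in 4 groups of stress and energy genes. None of 20 Nrf2 and glutathione genes, 8 antioxidant enzymes, 38 genes of oxidative phosphorylation or 23 of fatty acid oxidation was called by limma (medians -0.08, -0.09, -0.09 and -0.18). Without mice 1 and 27 the medians were -0.15, -0.18, -0.11 and -0.32. Below saline were 12 of the 20, 4 of the 8, 29 of the 38 and 17 of the 23. At an unadjusted p under 0.05 in the limma fit, 6 of the 20, 4 of the 8, 3 of the 38 and 3 of the 23 passed, and 1236 of all 5748 genes (21.5%). Gclc, of glutathione synthesis, was at 0.18, and its sign turned without mice 1 and 27 (-0.14) and with array weights (-0.20). Of 17 genes of endoplasmic reticulum stress 2 rose (11.8%, against 5.45% of all genes). They were the asparagine synthetase gene Asns, by 1.57 ± 0.29, and Atf5, by 0.77, while Ddit3 was at -0.50 (adjusted p = 0.13). Of 15 heat shock genes 1 rose (6.67%, close to the 5.45% of all genes), Hspb1, by 1.39 (adjusted p = 0.0045, and 0.1 without mice 1 and 27). With only the 12 arrays fitted the adjusted p was 0.076 for Asns, 0.12 for Atf5 and 0.13 for Hspb1. Among 17 podocyte genes 1 rose (5.88%, also close to that share), Cd2ap, by 0.44, a call lost without saline mouse 1, mouse 27 or mouse 29, and the nephrin gene Nphs1 was at -0.21. Vegfa was the other called member of that list, a fall (5.88%, against 1.15% of all genes). None of 17 endothelial genes was called, with 4 at an unadjusted p under 0.05. Of 11 cholesterol synthesis genes 1 fell (9.09%, against 1.15% of all genes), Ebp, by 0.45. Of 19 lysosome genes 1 rose (5.26%, again close to all genes), Ctsb, the protease cathepsin B, by 0.46. Ebp lost its call without any one of 7 mice (saline 3, 4 or 5, vancomycin 25, 27, 29 or 30), and Ctsb without any one of 4 (saline 1, vancomycin 25, 27 or 29). Of 10 vasoactive genes Ptgs2 and Vegfa fell (20.0%, against 1.15% of all genes). Among genes of other tissues, 0 of 6 from fat and 0 of 4 from muscle, pancreas and liver were called, with 1 of each at an unadjusted p under 0.05. Of 3 red blood cell genes 1 rose (33.3%, against 5.45% of all genes), Epb42, by 0.77, and was lost without mouse 27 or 29.

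The spread between treated mice was largest in the genes that rose. The median SD of the 313 rising genes was 0.51 at 200 mg/kg and 0.28 in saline, against 0.26 and 0.27 over all tested genes. Without saline mouse 1 the saline median over all tested genes was 0.18. In 242 of the 313 the SD was larger at 200 mg/kg, whereas this held for 48.3% of all genes. Both values include saline mouse 1. An SD over 1 was found in 46 of the 313 at 200 mg/kg (14.7%) and in 0 in saline. Over all tested genes the shares were 1.34% and 0.452%. At 400 mg/kg the median SD of the 313 rising genes was 0.39. For the 66 falling genes the median SD was 0.32 at 200 mg/kg and 0.31 in saline.

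**Figure D3:**
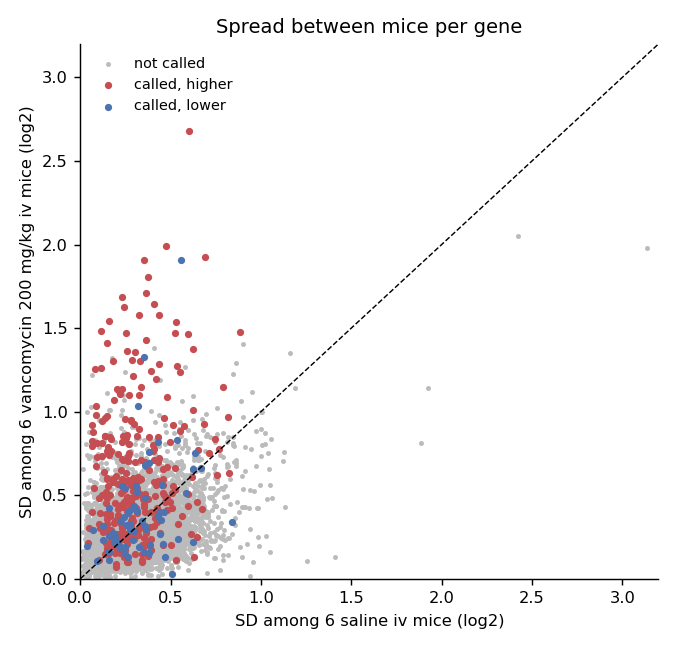
SD among 6 mice (log2 intensity) at 200 mg/kg against that in saline, 1 point per tested gene, with the 313 rising genes in red, the 66 falling genes in blue and equality dashed. Most rising genes (242 of 313) lie above the line.

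Mice 26 and 28 had the lowest medians in 7 of the 8 rising lists, complement being the exception. Of the 313 rising genes, 302 were above all saline mice in mouse 25, 178 in mouse 26, 286 in mouse 27, 108 in mouse 28, 308 in mouse 29 and 303 in mouse 30. The 313 were called from the mean of these same mice, so high counts are partly set by the choice of genes. The counts are a description and not a test. The median change of the tubular injury list was 2.29, 0.64, 2.37, 0.06, 2.06 and 1.80 in mice 25 to 30. For the myeloid list it was 2.35, 0.29, 1.48, 0.09, 1.29 and 1.72. Mouse 25 was highest for the myeloid, antigen presentation, matrix and cell cycle lists, and mouse 27 for tubular injury. In the cell cycle list the medians were 1.30 in mouse 25, 0.69 in mouse 30 and 0.34 or less in the other 4.

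In the immediate early genes mice 26 and 28 were not alike. Their median change was -1.20, -0.84, -0.77, -1.76, -1.02 and -1.32 in mice 25 to 30, and the lowest was that of mouse 28. The proximal tubule transporters were at -0.27, -0.05, -0.89, -0.11, -0.62 and -0.46, lowest in mouse 27, the array with the highest median. Saline mouse 1 was at -0.49 for the same list and at -0.38 over all tested genes. Without these 2 arrays the transporter median was -0.38, with 1 fall and 0 rises called in place of 3 and 1. The metabolic list then had a median of -0.39 and 3 falls in place of 4, and the collecting duct list 0 in place of 1.

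**Figure D4:**
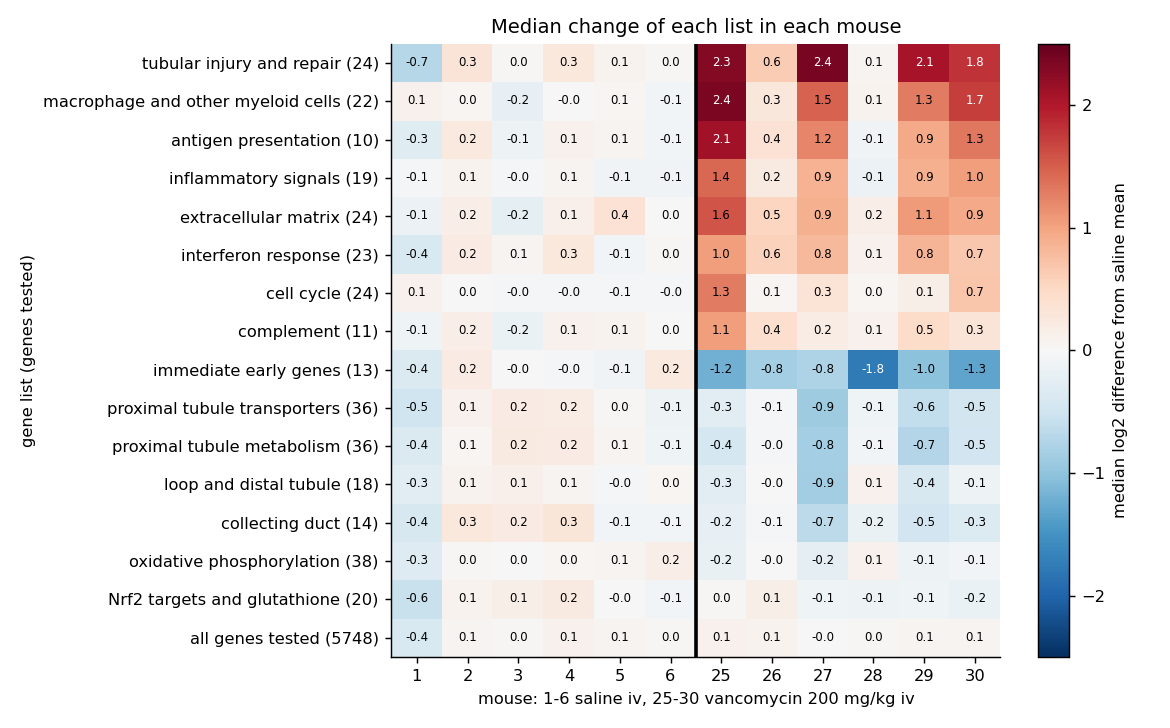
Median log2 difference from the saline mean of 15 gene lists and of all tested genes (rows, with the number of genes tested) in each mouse (columns); saline mice are set against the mean of the other 5. Mice 25, 27, 29 and 30 are high in the upper lists and mouse 28 is near 0 there (0.06 for tubular injury), while the immediate early genes are low in all 6 treated mice (-0.77 to -1.76).

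The lower and higher iv doses were set against the same 6 saline mice, so their results are not independent of those at 200 mg/kg. At 50 mg/kg 2 genes rose (0.0348%) and 30 fell (0.522%), 0.557% together. At 400 mg/kg 1722 rose (30.0%) and 1065 fell (18.5%), 48.5% together. Of 3 genes that rose at 200 mg/kg, Clu was at 0.10, 3.01 and 4.15 at 50, 200 and 400 mg/kg, Havcr1 at -0.39, 2.48 and 3.55, and Krt20 at -0.03, 2.48 and 6.19. Of the tubular injury list 0 rose at 50 mg/kg, 15 at 200 and 21 at 400 mg/kg. In the proximal tubule transporter list 0, 3 and 32 of 36 fell at these doses, and in oxidative phosphorylation 0, 0 and 26 of 38.

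The immediate early genes had another profile, with 6 of 13 down at 50 mg/kg, 7 at 200 and 5 at 400 mg/kg, where 5 rose. Of all genes 0.522%, 1.15% and 18.5% fell at these doses, and 30.0% rose at 400 mg/kg. Nr4a1 was at -4.18, -3.86 and -3.21, Fos at -4.41, -3.21 and -2.10, and Jun at -2.51, -1.56 and -0.22, the last not called (adjusted p = 0.61). All 3 comparisons use the high levels of the saline mice. The treated level itself ran from 5.13 to 7.15 for Nr4a1 at 50 mg/kg, and from 5.71 to 9.41 at 400 mg/kg. Differences between the doses were not tested.

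The same dose by the ip route, against its own saline mice, changed 3 of 5748 genes (0.0522%), with 2 up (0.0348%) and 1 down (0.0174%). They were the clock genes Dbp (1.98), Per3 (1.54) and Arntl (-1.33). The ip arrays had a higher 90th percentile than the iv arrays, so levels are not compared between routes, only changes from each route's saline. The difference between the 2 changes passed for 43 genes (0.748%), 16 higher (0.278%) and 27 lower (0.470%) by ip. For Clu the ip change was 0.18 against 3.01 by iv, a difference of -2.83 ± 0.47 (adjusted p = 0.00049). Serpina10, Cfi, Ms4a6b, Socs3 and D17H6S56E-5 also differed, at -4.70, -2.55, -2.60, -2.27 and -2.87. These 6 differences passed whichever of the 12 iv mice was left out.

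For the falling genes the differences were 3.60 ± 0.58 for Nr4a1 (adjusted p = 0.00029), 2.44 for Csrnp1, 2.35 for Rasd1 and 1.92 for Id1. The ip changes of these 4 were -0.27, -0.12, 0.03 and -0.13. Ciart, at 1.56 by ip, differed by 3.04. No difference between routes was shown for Havcr1 (-1.71 ± 0.60, adjusted p = 0.22), Fos (2.29 ± 1.02, 0.42) or Egr1 (1.56 ± 0.81, 0.52). The count of 43 depended on single mice: it was 25 and 27 without saline mouse 3 or 4, 23, 18, 21 and 22 without mouse 25, 27, 29 or 30, and 92 and 143 without mouse 26 or 28. It was 19 without a filter on low values.

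**Figure D5:**
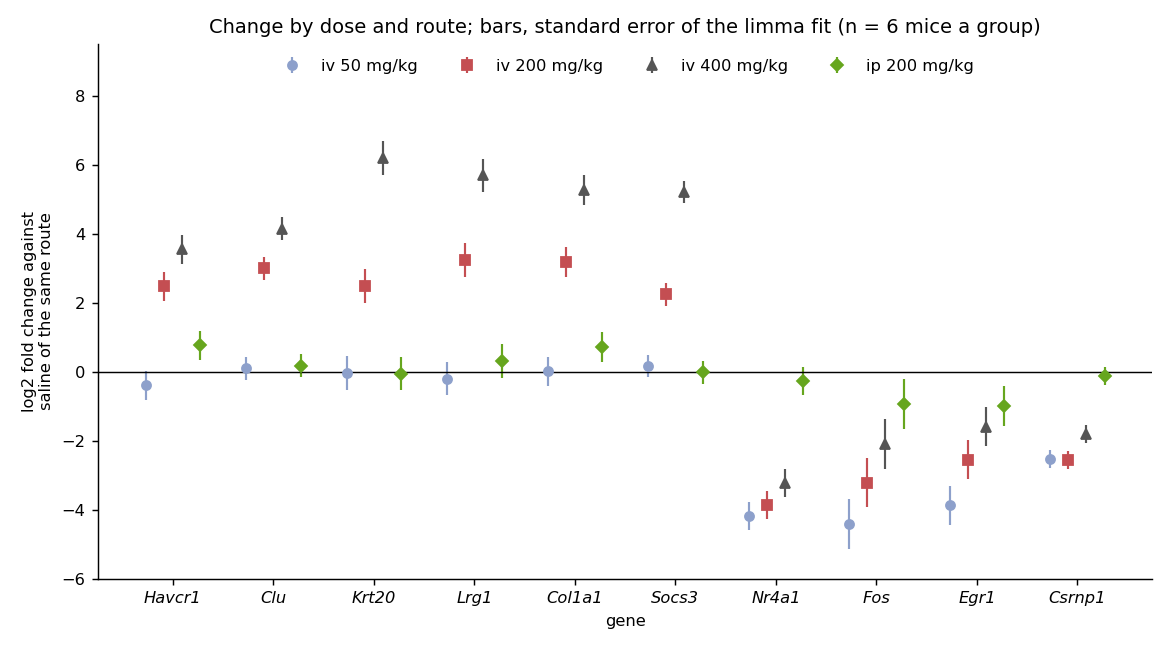
Log2 fold change against saline of the same route for 10 genes at iv 50, 200 and 400 mg/kg and at ip 200 mg/kg; symbols are estimates and bars standard errors of the limma fit (6 mice a group). The 3 iv series share their saline mice. Clu stands at 0.10, 3.01 and 4.15 by dose and at 0.18 by ip, and Nr4a1 at -4.18, -3.86 and -3.21 and at -0.27 by ip.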

How the data were processed

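RNA of whole mouse kidney was hybridised to single-colour arrays, 1 mouse each. Per the submitters' processing notes the authors made the deposited intensity values with GCRMA; no source used here names its version or the arrays normalized together. The 45101 rows were turned to log2 with no offset. Rows 751 to 3250, 5001 to 11750 and 34251 to 36000 were named with the identifier at an offset of 64, -47 and -16168 rows; 10198 rows gave 7859 genes, and the others stayed unnamed. This pairing was found from the values and is not stated by the authors.

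A probe set was kept where log2 exceeded 3.47, the table median, in at least 6 arrays (24930 kept, 5748 genes, brightest probe set each). All 48 arrays in 8 groups were fitted with limma 3.58.1 in R 4.3.3 (lmFit, contrasts.fit, eBayes with trend, two-sided, 40 residual degrees of freedom), with Benjamini-Hochberg adjustment over all kept probe sets and a threshold of 0.05; the script was tested on simulated data.

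Named genes were the 10 largest rises and falls on one side of the saline mean, a fixed set of kidney genes, the 3 members of lowest p in each of 33 lists, the 8 genes of largest treated SD and the 5 of lowest p between routes; other list members are named as examples, chosen after their values were seen. The mice, lists and tests were chosen with earlier results of these data known. The genes in the figures were chosen after their values were seen. Figures were drawn with matplotlib 3.10.9. No label names a batch.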

Additional observations from a re-analysis of the deposited data

Results flagged for a closer look

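For 18 named genes the change at 200 mg/kg differed between the ip and the iv route in the test of the difference itself (ip minus iv, adjusted p under 0.05). Lower by ip were Serpina10 (-4.70), Lrg1 (-2.93), Fga (-2.92), D17H6S56E-5 (-2.87), Clu (-2.83), Ms4a6b (-2.60), Cfi (-2.55), Timd2 (-2.49), Col1a1 (-2.45), Cd14 (-2.31), Socs3 (-2.27) and Ly86 (-2.08). Higher by ip were Nr4a1 (3.60), Ciart (3.04), Csrnp1 (2.44), Rasd1 (2.35), Dbp (2.26) and Id1 (1.92). The differences of 6 genes were lost without single iv mice. For Lrg1 these were saline mouse 1 and vancomycin mice 25, 27, 29 and 30 (adjusted p up to 0.079), for Ly86 saline mouse 3 and vancomycin mice 25, 27 and 30 (0.076), and for Fga mice 27 and 29 (0.069). Timd2 was lost without any one of 8 mice, saline 1, 3, 4 and 6 or vancomycin 25, 27, 29 and 30 (0.1). Col1a1 was lost without these or saline mouse 2 (0.11), and Cd14 without these or saline mouse 5 (0.1).

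A single mouse stood far from the other 5 of its group in 24 of 234 sets of levels (117 named genes in the saline and in the 200 mg/kg group). Chance would flag about 1 in 20 if the sets were independent. They share the same 12 arrays, so the 24 cannot be set against that rate. Saline mouse 1 accounted for 14: Clu below (9.05, others 10.05 to 10.49), Aoc1 below (3.53, others 5.38 to 5.98), Noct below (8.37, others 9.48 to 9.95), Csf3r above (3.26, others 3.13 to 3.15), Cd8a above (4.40, others 4.16 to 4.21), Iglv1 above (3.69, others 3.21 to 3.28), Atf5 below (3.42, others 4.09 to 4.42), Srxn1 below (7.11, others 8.22 to 8.55), Prodh below (10.60, others 11.18 to 11.42), Ndufs1 below (11.14, others 11.73 to 12.00), Npc2 below (10.16, others 10.48 to 10.58), Epb42 above (4.04, others 3.45 to 3.54), Slc4a1 below (7.43, others 8.25 to 8.58) and Il1f6 above (3.98, others 2.25 to 2.30). In saline mouse 2 it was Nphs1 below (4.73, others 5.32 to 5.45), and in saline mouse 4 Egr1 below (10.14, others 10.80 to 11.13) and Ehd3 above (7.85, others 7.20 to 7.43). At 200 mg/kg mouse 26 had Klf1 above (3.41, others 2.92 to 3.04), and mouse 28 Rasd1 below (3.86, others 5.21 to 5.90) and Scnn1a above (7.47, others 6.85 to 7.08). Mouse 27 had Iglv1 above (4.14, others 3.16 to 3.30), Pdk4 above (8.78, others 6.00 to 6.65), Mvd below (3.62, others 5.30 to 6.22) and Nr1d1 below (2.79, others 4.84 to 5.51). Csf3r, Iglv1, Klf1 and the saline levels of Il1f6 are at or near background.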

How the results depend on the processing

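All 379 calls, where still tested, kept their direction in every alternative run. In many runs the direction could not change, because the difference of group means stayed the same. These were the fits of only the 12 or 24 arrays, without trend, with other filters, on named genes only and with the residual component. It could change with another normalization, array weights, the mean of a gene's probe sets or mice left out. The counts of genes (probe sets in brackets) were 56 (223) with only the 12 arrays fitted, 28 up and 28 down, and 147 (507) with only the 24 iv arrays, 114 up and 33 down. Array weights gave 1159 (4250), 680 up and 479 down, and 524 genes for the route difference. With the first residual component as covariate there were 561 (2016), 154 down, and 92 for the route difference. Without saline mouse 1 and vancomycin mouse 27 there were 171 (616), 125 up, and 18 for the route difference. Quantile normalization gave 120 falls. No filter gave 19 route differences. Leaving out 1 mouse gave 240 to 529 genes (816 to 1803 probe sets), 192 to 429 up and 41 to 100 down, and 18 to 143 route differences; the lowest totals were without mouse 25 or mouse 29, the highest without mouse 28.

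Of 59 named calls, 35 were lost with only the 12 arrays fitted, 18 with the 24 iv arrays, 14 without mice 1 and 27, 4 without a filter and at most 10 without any 1 mouse. Signs turned only for uncalled genes: Gclc with array weights (-0.20) and without mice 1 and 27 (-0.14), Umod and Cd8a with quantile normalization (-0.05 and -0.00), Fabp4 with the mean of its probe sets (-0.08), Csf3r with array weights, without saline mouse 1, and without mice 1 and 27 (0.01 each), and Iglv1 without mice 1 and 27 (-0.01). Leaving out 1 mouse gave -0.08 to 0.14 for Iglv1, -0.31 to 0.06 for Slc4a1, -0.52 to 0.03 for Lipe, -1.23 to 0.08 for Thrsp and -0.41 to 1.13 for Adipoq. The cause was not tested. No paired analysis was possible because mouse numbers are not shared between groups. The route difference was not run on the 12 or 24 arrays, which hold no ip mice. Of 313 rising genes 30 had a saline mean under 3.47, so the size of these changes is approximate. A gene at background in saline could pass the filter through a treated group where it was high. Such a gene could be called up but hardly down, which may tilt the counts towards rises. Without a filter 242 genes rose and 53 fell.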

Other observations

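Several called genes lie outside every list; those named here were chosen after their values were seen. Among rises were Aldh1a2, which makes retinoic acid (2.15), Osmr, the oncostatin M receptor gene (2.00), Slc34a2, a phosphate transporter gene of epithelia other than the proximal tubule (1.92), Smpdl3b (1.93), Cks1b, a partner of cyclin-dependent kinases (1.85), Cygb, or cytoglobin (1.54), and S100a4 (1.42). Among falls were Tob2 (-1.46) and Tob1 (-1.03), whose products restrain cell division, Dmrt2 (-1.38), Trib1 (-1.10) and Kcnk5, a potassium channel gene (-1.01). With only the 12 arrays fitted, Osmr alone of these rises kept its call (adjusted p = 0.035, the others 0.051 to 0.13). The falls named here all kept theirs (0.0039 to 0.043).

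The fat genes Adipoq and Thrsp varied widely in both groups, with SDs of 3.14 and 1.98 for Adipoq and 2.42 and 2.05 for Thrsp. Adipoq levels were 2.66, 1.80, 2.08, 9.49, 6.05 and 6.98 in the saline mice and 6.00, 6.78, 2.13, 6.42, 2.93 and 5.97 in the treated mice. Thrsp levels were 4.45, 4.56, 4.96, 10.54, 7.22 and 8.01 and 5.04, 7.53, 3.31, 8.58, 4.22 and 6.85. The groups overlapped for both, and neither was called.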
